A study of Mus musculus with 16 samples.

Results

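The fatty acid binding proteins are small cytosolic carriers of long-chain fatty acids, and 5 of them were followed here across the array data of 1 mouse study: *Pmp2*, *Fabp7*, *Fabp3*, *Fabp4* and *Fabp5*. They are 5 of the 19937 genes that the array's platform table pairs with a probeset of their own, a probeset being a group of probes for 1 transcript. Where a gene had more than 1 such probeset, the one with the highest mean over the 16 arrays stood for it. The family was taken up because the change of *Pmp2* between the genotypes was already known, so the differences of *Pmp2* between the groups are given as a description, without a test.

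Each of these proteins folds into a barrel that holds a fatty acid or a related lipid and carries it between membranes, organelles and the nucleus. The members are known by the tissue in which each was first found in quantity. PMP2, also called myelin P2 or FABP8, sits at the cytoplasmic face of compact myelin made by Schwann cells of peripheral nerves, FABP7 is the carrier of radial glia, astrocytes and Schwann cell precursors, FABP3 that of heart and skeletal muscle, FABP4 that of fat cells, macrophages and capillary endothelium, and FABP5 that of epidermis and many epithelia.

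The study asked what changes in the inner ear when a cluster of 3 microRNAs that is normally made in sensory cells, the miR-183 cluster, is expressed outside them. Mice homozygous for the transgene *Tg(GFAP-Mir183,Mir96,Mir182)1MDW*, written Tg1MDW/1MDW, were set against wild-type (WT) mice, all on the inbred FVB/NCrl strain. At P5 (postnatal day 5) RNA came from the microdissected organ of Corti of 5 Tg1MDW/1MDW and 5 WT samples. At P18 it came from the whole cochlea without the vestibular labyrinth of 3 Tg1MDW/1MDW and 3 WT samples. Age and tissue therefore change together and cannot be told apart, and every comparison between the ages below is also one between tissues. The transgene is driven by a core promoter of the human *GFAP* gene, which is active in supporting cells, the spiral limbus and Schwann cells, and the line descends from 1 founder.

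The 3 microRNAs that the transgene adds are printed to show what distinguishes the Tg1MDW/1MDW mice. Bases 2 to 8, the seed that pairs with target transcripts, are in capitals, and the sequences and their places on chromosome 6 (minus strand) are those of RefSeq for GRCm38.p6.
mmu-miR-182-5p: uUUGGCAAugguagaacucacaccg
mmu-miR-96-5p: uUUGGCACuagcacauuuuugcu
mmu-miR-183-5p: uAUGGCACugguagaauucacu
The mature forms lie at chr6:30165962-30165986, chr6:30169506-30169528 and chr6:30169711-30169732, in the order printed, and no pair of them has the same seed. Seed matches in the transcripts of the members were not analysed here.

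Samples were grouped by their titles, which other label fields contradict in age, tissue and genotype. The arrays bore the titles out for genotype: *Mir182*, *Mir96*, *Mir183* and *Prm1*, whose sequence is part of the transgene, were higher on every Tg1MDW/1MDW array than on every WT array at both ages, by 3.46, 3.40, 3.31 and 3.68 on the log2 scale at P5 and by 4.09, 3.36, 3.47 and 2.50 at P18. The names are those of the platform table. The study's own tables of changed genes have *Mir182* and *Mir96* the other way round, while its text gives the largest P18 change to *Mir182*. The mean signal of 8 supporting cell marker genes was 9.93 to 10.4 on the Tg1MDW/1MDW arrays and 9.98 to 10.4 on the WT arrays at P5, and 8.84 to 8.90 on the Tg1MDW/1MDW and 8.81 to 8.85 on the WT arrays at P18. For 8 hair cell markers the P5 means were 8.13 to 8.32 in Tg1MDW/1MDW and 8.11 to 8.32 in WT, and the P18 means 7.60 to 7.67 in Tg1MDW/1MDW and 7.61 to 7.64 in WT. All signals in this account are the deposited log2 signals, on which 1 unit is a doubling. The lower quartile of the 34760 probesets lay between 4.54 and 5.05, depending on the array. Signals of different probesets are not set against each other, because probes differ in how they bind.

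*Pmp2* was the member that differed between the genotypes at both ages, in opposite directions. At P5 its signal was 5.66, 5.74, 5.02, 4.53 and 5.12 in Tg1MDW/1MDW organs of Corti, against 7.91, 8.29, 8.17, 8.07 and 8.16 in WT organs of Corti. Every Tg1MDW/1MDW sample therefore lay more than 2 log2 units below every WT sample, in an order that 1.29% of all probesets had without overlap, and the Tg1MDW/1MDW samples spread more widely, with replicate 4 the lowest and below the lower quartile of its own array (4.99). The means were 5.21 ± 0.50 in Tg1MDW/1MDW and 8.12 ± 0.14 in WT (SD, n = 5 each), a difference of -2.91 (SE 0.19, 95% interval -3.30 to -2.51), or 7.49-fold lower in Tg1MDW/1MDW. By size this ranked 7 among all probesets. In bulk tissue, fewer cells of a type and less RNA per cell cannot be told apart.

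At P18 the order was the other way round. *Pmp2* measured 6.73, 6.77 and 6.75 in Tg1MDW/1MDW cochleae, against 5.06, 5.50 and 4.97 in WT cochleae, again without overlap, as for 14% of all probesets in that direction. The means were 6.75 ± 0.02 in Tg1MDW/1MDW and 5.18 ± 0.29 in WT (SD, n = 3 each), and the difference was 1.57 (SE 0.24, 95% interval 1.07 to 2.08), or 2.98-fold higher in Tg1MDW/1MDW. It ranked 38 by size. The P18 difference minus the P5 difference was 4.48 (SE 0.30), which ranked 1 of all 34760 probesets. Since the family was chosen with this change in view, these ranks describe *Pmp2* and test nothing.

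**Figure D1:**
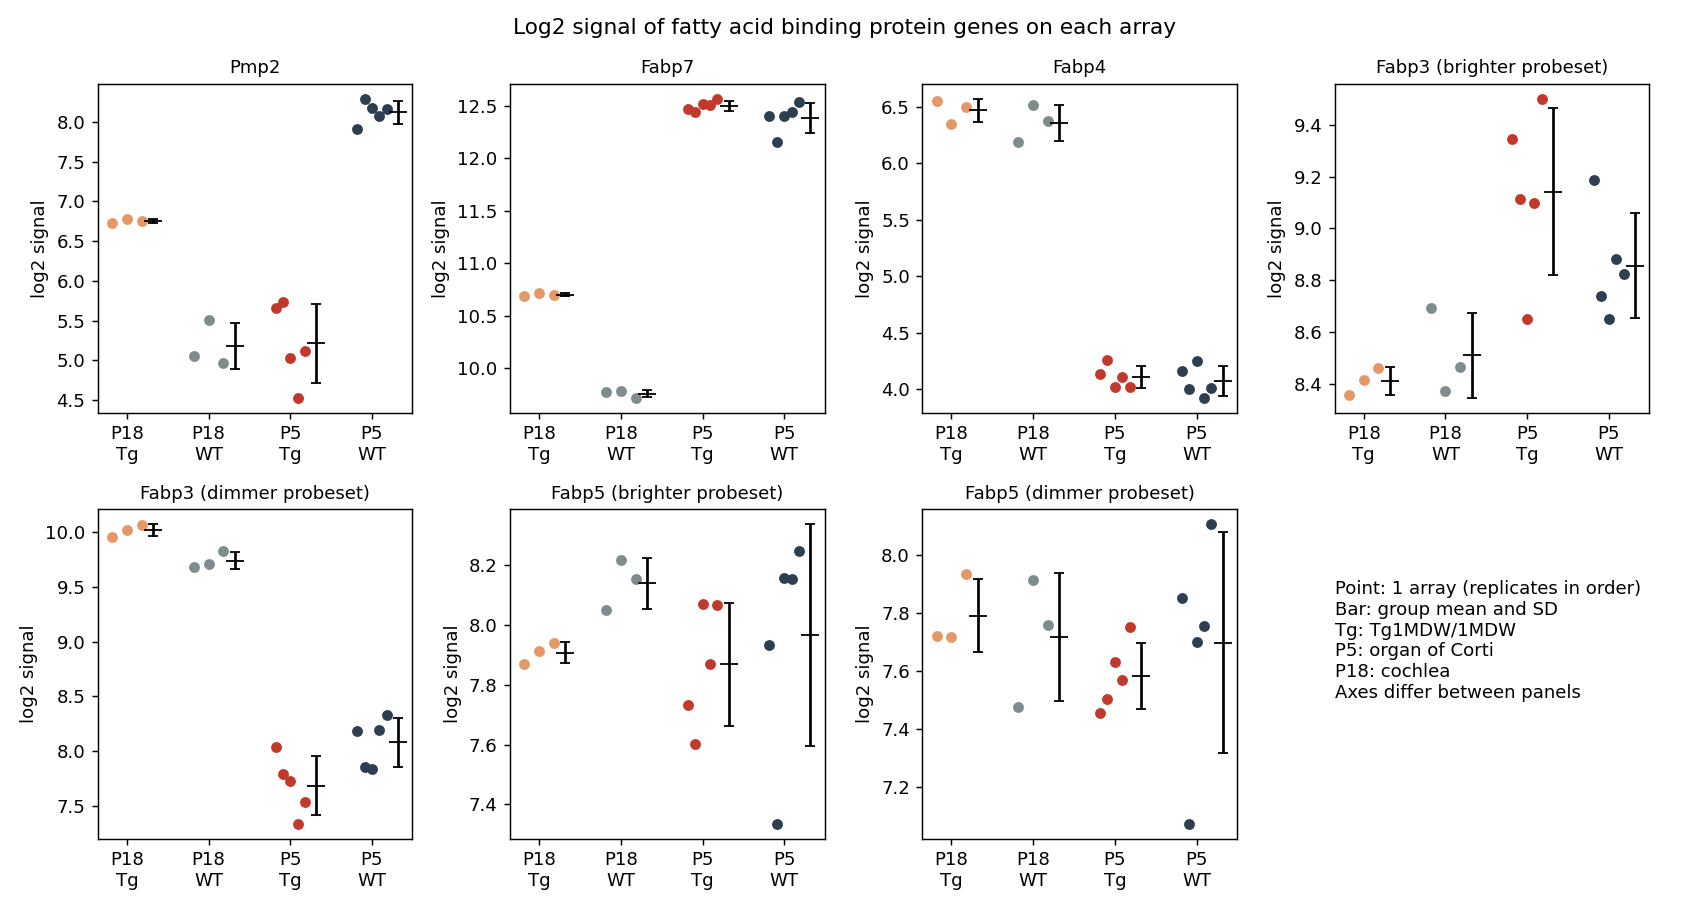
Log2 signal (vertical axis) of the 5 members and of the dimmer probesets of *Fabp3* and *Fabp5* on each array, in 4 groups along the horizontal axis, P18 left of P5 and Tg1MDW/1MDW (Tg) left of WT at each age. Points are arrays, and bars are group means with their SD. *Pmp2* has the Tg points below the WT points at P5 and above them at P18, and *Fabp7* separates at P18, where the Tg arrays are between 10.69 and 10.71 and the WT arrays between 9.71 and 9.78.

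The change of *Pmp2* from the P5 organ of Corti to the P18 cochlea also ran in opposite directions in the genotypes. In Tg1MDW/1MDW it was 1.54 higher at P18 than at P5 (SE 0.21), and in WT it changed by -2.94 (SE 0.21). These are the same 4 group means as in the genotype differences above, so they add no separate evidence. The groups ranked, from high to low, WT P5, Tg1MDW/1MDW P18, Tg1MDW/1MDW P5 and WT P18, and the last pair overlapped, at 4.53 to 5.74 in Tg1MDW/1MDW P5 and 4.97 to 5.50 in WT P18.

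Genes of peripheral myelin were lower with *Pmp2* at P5, and none of those followed here passed with it at P18. Of a list of 11 markers of myelinating Schwann cells, 8 were analysed here, and all 8 passed as lower in Tg1MDW/1MDW at P5, where 0.549% of all probesets passed as lower. Most of the 8 are among the genes that the study itself reported as lowered at P5 on these same arrays. Their count is therefore a description and tests nothing. The changes of the 8 had a median of -1.34 and ran to -2.23 for *Mag*, the myelin-associated glycoprotein, with -2.03 for *Cldn19*, a tight junction protein of the Schwann cell, and -0.69 for *Mal*, a myelin proteolipid. The mean of the 8 genes was 8.18 to 8.85 on the Tg1MDW/1MDW arrays and 9.82 to 10.1 on the WT arrays. At P18 none of the 8 passed in limma (2 had an unadjusted p under 0.05, as had 8.77% of all probesets), the median change was 0.18, and the list means were 9.82 to 9.95 in Tg1MDW/1MDW and 9.72 to 9.79 in WT, where 0.443% of all probesets passed in either direction. The difference of *Pmp2* at P5 was larger than that of any of the 8, and at P18 its change of 1.57 lay beyond their range of -0.05 to 0.33. In WT, the list means at P18 and P5 were close while *Pmp2* changed by -2.94, and 3 of the 8 passed as lower and 2 as higher, where 30.2% and 19.8% of all probesets did. The part of the myelin genes' level in the *Pmp2* result was not tested.

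**Figure D2:**
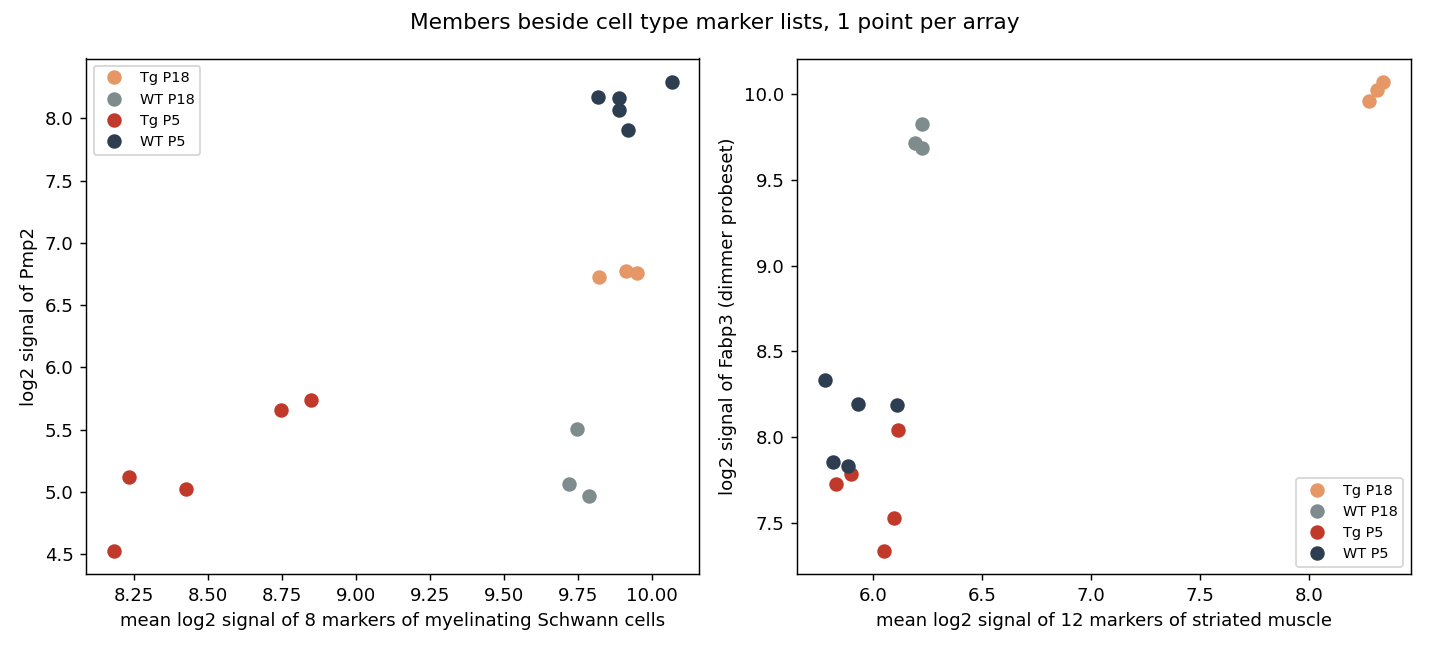
Log2 signal of *Pmp2* against the mean log2 signal of 8 myelinating Schwann cell markers (left), and of the dimmer *Fabp3* probeset against the mean of 12 striated muscle markers (right), 1 point per array, coloured by group (Tg is Tg1MDW/1MDW). At P5 the Tg points lie low on both axes of the left panel, at P18 the genotypes differ on the *Pmp2* axis while the Schwann cell marker means lie between 9.72 and 9.95, and in the right panel the P18 Tg points stand between 8.27 and 8.34 on the muscle axis, against 6.19 to 6.22 for WT.

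The P5 arrays also differed in sex-linked signal between the genotypes. The mean of 3 Y-linked genes was between 8.61 and 8.96 on 1 Tg1MDW/1MDW and 4 WT arrays at P5 and between 3.90 and 4.06 on the other P5 arrays. With the Y-linked mean as a covariate the *Pmp2* difference at P5 was -2.67 (SE 0.21). The Tg1MDW/1MDW array with high Y-linked signal had a *Pmp2* signal of 5.66, against 8.07 to 8.29 on the WT arrays with high Y-linked signal, and the WT array with low Y-linked signal had 7.91, where the Tg1MDW/1MDW arrays with low Y-linked signal had 4.53 to 5.74. One genotype had a single array in each of these sets, and the part of sex in the *Pmp2* result was not tested further. At P18 the Y-linked mean was 7.65 to 7.66 in Tg1MDW/1MDW and 7.22 to 7.34 in WT. Every P18 array thus lay between the low and the high P5 levels. Whether the P18 samples pooled both sexes was not tested, so their spread may not be that between mice.

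*Fabp7*, the glial carrier, was higher in Tg1MDW/1MDW cochleae at P18 and was not called at P5. At P18 its signal was 10.69, 10.71 and 10.70 in Tg1MDW/1MDW, against 9.77, 9.78 and 9.71 in WT. The groups lay almost 1 unit apart, with far less spread within either of them. The means were 10.70 ± 0.01 in Tg1MDW/1MDW and 9.76 ± 0.04 in WT (SD, n = 3 each), a rise of 0.94 (SE 0.09, 95% interval 0.76 to 1.13, limma adjusted p = 1.3e-05). At P18, 0.383% of all probesets passed as higher. At P5 it measured 12.47, 12.45, 12.51, 12.51 and 12.57 in Tg1MDW/1MDW and 12.40, 12.15, 12.40, 12.44 and 12.53 in WT. The groups overlapped and differed by 0.12 (SE 0.07, 95% interval -0.03 to 0.26, limma adjusted p = 0.39). The difference between the 2 genotype effects was 0.83 (SE 0.11, limma adjusted p = 0.00083), and 0.596% of all probesets passed that test.

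*Fabp7* was lower at P18 than at P5 in both genotypes, by a smaller amount in Tg1MDW/1MDW. The change was -1.80 (SE 0.08, limma adjusted p = 3.8e-11) in Tg1MDW/1MDW and -2.63 (SE 0.08, limma adjusted p = 4.7e-13) in WT. Over all probesets, 54.1% passed this test between the ages in Tg1MDW/1MDW and 50% in WT, so that such a call is common on these arrays. The order of the groups was Tg1MDW/1MDW P5, WT P5, Tg1MDW/1MDW P18 and WT P18, of which only the P5 groups overlapped.

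A list of other glial genes moved little as a whole beside *Fabp7* at P18. The mean of 12 markers of the Schwann lineage and glia was 9.06 to 9.11 in Tg1MDW/1MDW and 8.98 to 9.01 in WT, without overlap. The median change was -0.0034, with 6 of the 12 higher and 6 lower. Of the 12, 3 had an unadjusted p under 0.05, as had 8.77% of all probesets, and 1 passed, where 0.383% of all probesets passed as higher. It was *Cdh19*, a cadherin of Schwann cell precursors, with mean signals of 7.85 in Tg1MDW/1MDW and 7.13 in WT and a rise of 0.73 (limma adjusted p = 0.0020). *Cdh19* also passed the test of the difference between the ages, at 0.63 (limma adjusted p = 0.036). At P5 the list means were 8.67 to 8.98 in Tg1MDW/1MDW and 8.69 to 9.04 in WT, and none of the 12 passed in limma (2 at an unadjusted p under 0.05, as had 16.4% of all probesets). Markers of striated muscle separated the P18 groups more widely: 10 of 12 passed as higher in Tg1MDW/1MDW, against 0.383% of all probesets, with a median change of 2.21 and list means of 8.27 to 8.34 in Tg1MDW/1MDW and 6.19 to 6.22 in WT. Most of these muscle markers are among the genes that the study itself reported as raised at P18 on these same arrays. Their count is therefore a description and tests nothing. The part of muscle tissue in the P18 values of *Pmp2* and *Fabp7* was not tested. At P5 none of the 12 muscle markers passed in limma (4 at an unadjusted p under 0.05), and the list means were 5.83 to 6.12 in Tg1MDW/1MDW and 5.78 to 6.11 in WT.

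*Fabp4*, the carrier of fat cells, macrophages and capillaries, differed between the P5 organ of Corti and the P18 cochlea and not detectably between the genotypes. At P18 it measured 6.55, 6.35 and 6.5 in Tg1MDW/1MDW and 6.19, 6.51 and 6.37 in WT. At P5 it measured 4.13, 4.26, 4.02, 4.11 and 4.02 in Tg1MDW/1MDW and 4.16, 4.0, 4.25, 3.92 and 4.01 in WT, all below the lowest lower quartile of 4.54. Both pairs of groups overlapped. The genotype difference was 0.04 (SE 0.08, 95% interval -0.14 to 0.22, limma adjusted p = 0.82) at P5 and 0.11 (SE 0.11, 95% interval -0.12 to 0.34, limma adjusted p = 0.87) at P18.

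From P5 to P18 the signal of *Fabp4* rose by 2.36 in Tg1MDW/1MDW (limma adjusted p = 2.1e-11) and by 2.29 in WT (limma adjusted p = 2.6e-11). Macrophage markers moved the same way in WT: 7 of 8 passed as higher at P18, with a median change of 1.36, where 19.8% of all probesets passed as higher. Of 9 endothelial markers, 6 passed as higher in WT and 2 as lower. Fat cell markers moved little: 2 of 7 passed as higher in WT, with a median change of 0.085. In Tg1MDW/1MDW 54.1% of all probesets passed in either direction. There 7 of 8 macrophage markers passed as higher, and 5 of 9 endothelial markers as higher and 1 as lower. Of the 7 fat cell markers, 1 passed as higher and 1 as lower in Tg1MDW/1MDW, with a median change of -0.18. The macrophage list means were 8.86 to 8.91 in Tg1MDW/1MDW and 8.96 to 9.0 in WT at P18, and 7.22 to 7.57 in Tg1MDW/1MDW and 7.35 to 7.73 in WT at P5. The fat cell list means were 5.95 to 5.97 in Tg1MDW/1MDW and 6.0 to 6.12 in WT at P18, and 5.66 to 5.95 in Tg1MDW/1MDW and 5.54 to 5.79 in WT at P5. None of the markers of these 3 cell types passed in a genotype comparison in limma. At an unadjusted p under 0.05 there were 5 of 9 endothelial, 1 of 7 fat cell and 0 of 8 macrophage markers at P5, and 0, 1 and 0 at P18, where 16.4% of all probesets at P5 and 8.77% at P18 had such a p. Their part in the *Fabp4* result was not tested.

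*Fabp3* had 2 probesets that went different ways, and the one that stood for the gene by its mean lies elsewhere in the genome. Over the 16 arrays their means were 8.80 and 8.63. The numbering of probesets on this array follows the genome. The brighter one (10371502) is numbered between probesets of *Hsp90b1* and *Stab2*, with 10 of its 10 nearest named neighbours on chromosome 10, where RefSeq places the pseudogene *Fabp3-ps1* (chr10:86731753-86732428). The dimmer one (10508614) is numbered between *Pef1* and *Snord85*, with 9 of 10 neighbours on chromosome 4, which holds *Fabp3* itself (chr4:130308738-130315463). Transcripts of a pseudogene and its parent cannot be told apart by probes that fit both, so both probesets are given.

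The brighter *Fabp3* probeset measured 9.34, 9.11, 8.65, 9.10 and 9.50 in Tg1MDW/1MDW and 9.19, 8.74, 8.65, 8.88 and 8.82 in WT at P5. At P18 it measured 8.35, 8.41 and 8.46 in Tg1MDW/1MDW and 8.69, 8.37 and 8.47 in WT. The groups overlapped at both ages, and the differences of 0.29 at P5 (SE 0.14, limma adjusted p = 0.31) and -0.10 at P18 (SE 0.18, limma adjusted p = 0.95) did not pass. Without Tg1MDW/1MDW P5 replicate 3 the P5 difference was 0.41 and passed (limma adjusted p = 0.043, and 0.043 to 0.58 over the arrays left out in turn). The dimmer probeset measured 8.04, 7.79, 7.73, 7.34 and 7.53 in Tg1MDW/1MDW and 8.19, 7.86, 7.83, 8.19 and 8.33 in WT at P5, a difference of -0.40 (SE 0.12, 95% interval -0.66 to -0.13, limma adjusted p = 0.18). At P18 it measured 9.96, 10.02 and 10.07 in Tg1MDW/1MDW and 9.68, 9.71 and 9.83 in WT. There the groups did not overlap, as for 27.6% of all probesets at P18, and the difference of 0.28 (SE 0.16) did not pass (limma adjusted p = 0.69). FABP3 is abundant in striated muscle, whose markers were higher in Tg1MDW/1MDW at P18 by the values given above, and their part in this value was not tested.

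Between the ages the *Fabp3* probesets disagreed in direction. The brighter changed by -0.73 in Tg1MDW/1MDW (SE 0.16, limma adjusted p = 0.0011) and by -0.35 in WT (SE 0.16, limma adjusted p = 0.083), and the WT change passed without Tg1MDW/1MDW P5 replicate 3 (limma adjusted p = 0.029, and 0.029 to 0.25 over the arrays left out in turn). For the brighter probeset the difference between the genotypes in this was -0.38 and did not pass (limma adjusted p = 0.44). The dimmer rose by 2.33 in Tg1MDW/1MDW (limma adjusted p = 1.9e-09) and by 1.66 in WT (SE 0.14, limma adjusted p = 8.7e-08). No direction between the ages and tissues can therefore be given for *Fabp3* from the 2 probesets together. Over all probesets, 54.1% passed between the ages in Tg1MDW/1MDW and 50% in WT.

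*Fabp5*, the epidermal carrier, varied least across the groups. It too had 2 probesets, with means of 7.96 and 7.68 over the 16 arrays. The brighter (10585699) is numbered between *Trcg1* and *Rpp25*, with 10 of 10 neighbours on chromosome 9, while the gene lies at chr3:10012585-10016610. At P5 it measured 7.73, 7.60, 8.07, 7.87 and 8.07 in Tg1MDW/1MDW and 7.93, 7.34, 8.16, 8.15 and 8.25 in WT, a difference of -0.10 (SE 0.15, limma adjusted p = 0.76). At P18 it measured 7.87, 7.91 and 7.94 in Tg1MDW/1MDW and 8.05, 8.22 and 8.15 in WT. These P18 groups did not overlap, as for 13.6% of all probesets in that direction, but the difference of -0.23 (SE 0.19, 95% interval -0.63 to 0.17) did not pass (limma adjusted p = 0.83). That SE rests on a variance shared with the P5 arrays. A fit of the P18 arrays alone gave an SE of 0.06, and the difference did not pass there either (limma adjusted p = 0.12). The changes from P5 to P18 were 0.04 in Tg1MDW/1MDW (limma adjusted p = 0.86) and 0.17 in WT (limma adjusted p = 0.42).

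The dimmer *Fabp5* probeset (10490838), numbered between *Zbtb10* and *Gm9833* beside the gene's own place, did not pass either. It measured 7.46, 7.51, 7.63, 7.57 and 7.75 in Tg1MDW/1MDW and 7.85, 7.07, 7.70, 7.76 and 8.11 in WT at P5, and 7.72, 7.72 and 7.94 in Tg1MDW/1MDW and 7.48, 7.91 and 7.76 in WT at P18. The groups overlapped at both ages. Its genotype differences were -0.12 (limma adjusted p = 0.71) at P5 and 0.07 (limma adjusted p = 0.97) at P18. WT replicate 2 was the lowest P5 WT sample for both *Fabp5* probesets and for *Fabp7*. None of 8 keratinocyte and skin markers passed in a genotype comparison in limma. At an unadjusted p under 0.05 there were 1 at P5 and 0 at P18, against 16.4% and 8.77% of all probesets. All 8 were higher in Tg1MDW/1MDW at P5 (median 0.08), and 7 were lower at P18 (median -0.06).

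Apart from *Pmp2*, which was chosen for its change, none of the other 4 members passed at P5, where 0.61% of all probesets passed, and 1 of them passed at P18 (*Fabp7*, higher), where 0.443% passed in either direction and 0.383% as higher. The wider family of intracellular lipid binding proteins also holds the cellular retinol and retinoic acid carriers and the FABPs of liver, gut and testis. Of 15 family genes 14 were analysed here. None of them but *Pmp2* passed at P5, and the median change was 0.07, against -0.01 over all probesets. At P18 none but *Pmp2* and *Fabp7* passed, and the median was -0.06, against -0.02 over all probesets.

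**Figure D3:**
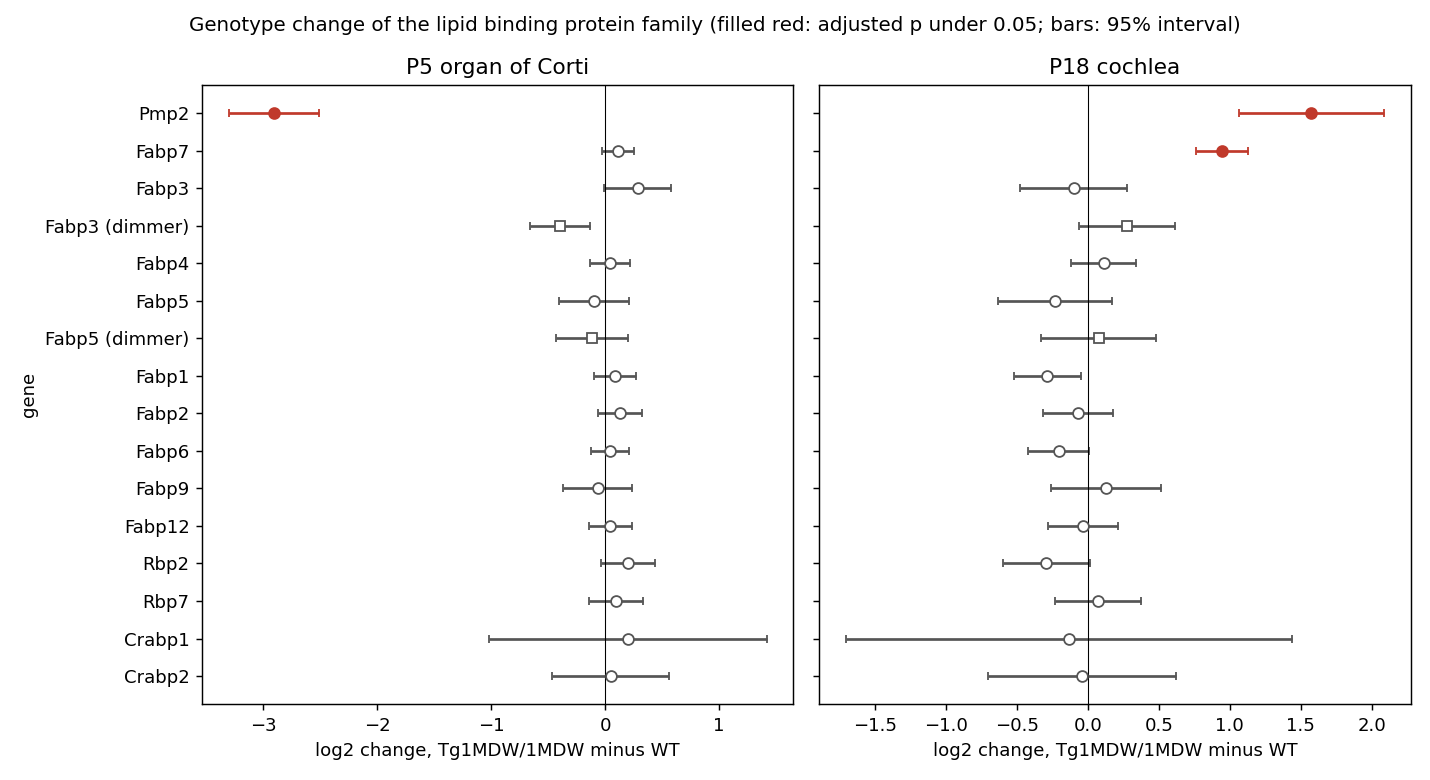
Tg1MDW/1MDW minus WT difference in log2 signal for 14 genes of the lipid binding protein family at P5 (left) and P18 (right), with 95% intervals, filled red where the limma adjusted p was under 0.05, with squares for the dimmer probesets of *Fabp3* and *Fabp5* (the fill of *Pmp2* is a description). *Pmp2* stands at -2.91 at P5 and 1.57 at P18 and *Fabp7* at 0.94 at P18, while the intervals of the other genes take in 0 or their adjusted p did not pass.

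The FABPs of liver (*Fabp1*), intestine (*Fabp2*) and ileum (*Fabp6*), and *Fabp9* and *Fabp12*, known from testis, had signals of 3.34 to 4.51 on all arrays, below the lowest lower quartile of 4.54. Low as they were, in WT *Fabp1* and *Fabp6* passed as higher at P18 than at P5, as did 19.8% of all probesets. The age difference of *Fabp1* was -0.01 in Tg1MDW/1MDW (limma adjusted p = 0.96) and 0.37 in WT (limma adjusted p = 0.0055), and that of *Fabp6* was 0.05 in Tg1MDW/1MDW (limma adjusted p = 0.64) and 0.30 in WT (limma adjusted p = 0.011). The difference between the genotypes in this did not pass for *Fabp1* (-0.37, limma adjusted p = 0.26) or *Fabp6* (-0.25, limma adjusted p = 0.39). Among the vitamin A carriers, *Rbp7*, which binds retinol in endothelium and fat, rose from P5 to P18 by 1.37 in Tg1MDW/1MDW (limma adjusted p = 2.5e-07) and by 1.40 in WT (limma adjusted p = 1.9e-07). *Crabp2*, a retinoic acid carrier that delivers it to nuclear receptors, changed from P5 to P18 by -0.71 in Tg1MDW/1MDW (limma adjusted p = 0.041) and by -0.62 in WT (limma adjusted p = 0.076). In Tg1MDW/1MDW its P5 samples numbered 1 and 2 were at 7.31 and 7.61, against 7.25, 7.44 and 7.49 at P18. The P5 samples numbered 3 to 5 were higher, at 8.85, 8.61 and 8.14. *Rbp2*, the intestinal retinol carrier, changed by -0.44 in Tg1MDW/1MDW (limma adjusted p = 0.0098) and by 0.05 in WT (limma adjusted p = 0.76). For these carriers too the difference between the genotypes did not pass, at -0.49 for *Rbp2* (limma adjusted p = 0.26) and -0.09 for *Crabp2* (limma adjusted p = 0.94). Such calls between the ages are common on these arrays: 54.1% of all probesets passed in Tg1MDW/1MDW and 50% in WT, in either direction.

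*Crabp1*, another retinoic acid carrier, was the family member that varied most within a group. At P5 it measured 7.55, 7.35, 10.2, 9.50 and 8.82 in Tg1MDW/1MDW and 7.37, 6.85, 9.35, 9.37 and 9.46 in WT, in the order of the replicate numbers. In both genotypes the samples numbered 1 and 2 were lower than all those numbered 3 to 5, whereas at P18 it measured 7.52, 7.54 and 7.58 in Tg1MDW/1MDW and 7.50, 7.73 and 7.81 in WT. The genotype difference of *Crabp1* at P5 was 0.20 (SE 0.57, limma adjusted p = 0.88). *Crabp2* was split in the same way at P5 in Tg1MDW/1MDW, by the values above. In WT it measured 7.73, 7.77, 8.13, 8.22 and 8.43, again with the samples numbered 1 and 2 the lowest. For *Pmp2* the samples numbered 1 and 2 were the highest Tg1MDW/1MDW samples at P5, and in WT the lowest and the highest.

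*Pmp2* lies in a cluster of family genes on chromosome 3 (chr3:10179851-10183885). No genotype difference passed for its neighbours, whose signals were mostly low. The nearest, *Fabp9* (chr3:10193623-10197283), starts 13.8 kb away and shares a listed transcript with *Pmp2* in the platform table. Its differences were -0.07 at P5 (limma adjusted p = 0.83) and 0.13 at P18 (SE 0.18, limma adjusted p = 0.93). *Fabp4* (chr3:10204342-10208616) starts 24.5 kb away and *Fabp12* (chr3:10244209-10301515) 64.4 kb away, and *Fabp12* differed by 0.05 and -0.04. *Fabp5* lies 167 kb to the other side. The signals of *Fabp9*, *Fabp12* and, at P5, *Fabp4* lay below the lower quartile of every array. *Fabp7* lies apart from the cluster at chr10:57784923-57788450.

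**Figure D4:**
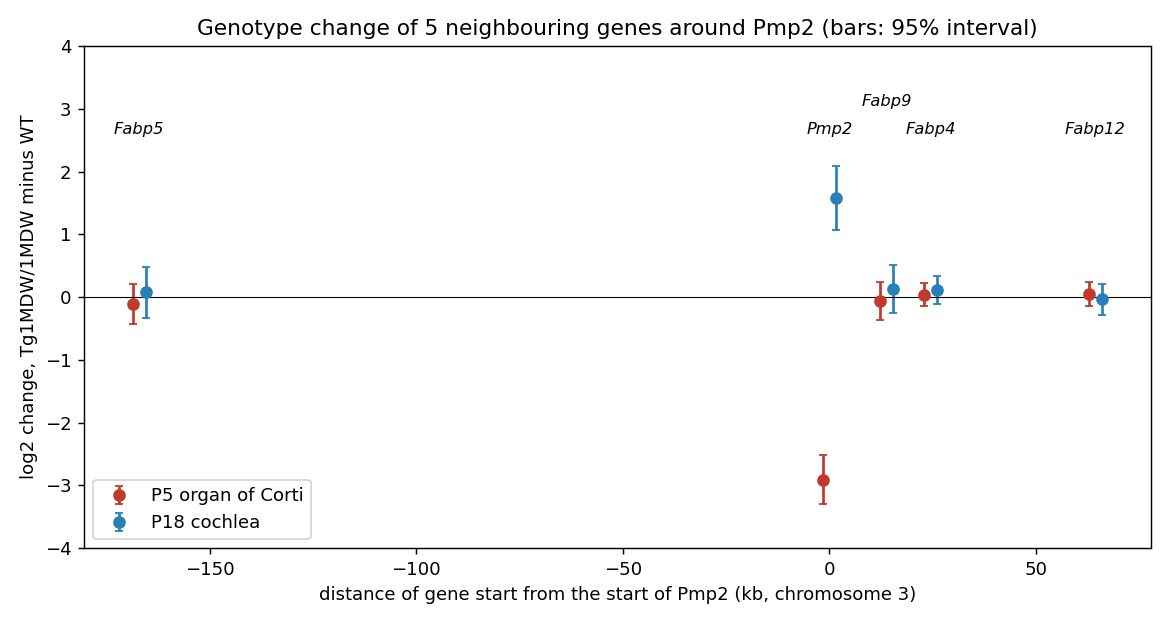
Tg1MDW/1MDW minus WT difference in log2 signal (vertical axis, with 95% intervals) of the family genes of chromosome 3 against the distance of their start from that of *Pmp2* in kb (horizontal axis), at P5 and P18, with the points of the ages drawn slightly to either side of the gene start. *Pmp2* stands alone at -2.91 and 1.57, and the other 4 genes, *Fabp5* by the probeset numbered beside the gene, lie near 0.

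Genes that act with these carriers changed little between the genotypes. Of 15 genes of fatty acid uptake and activation, none passed in limma at P5 (5 at an unadjusted p under 0.05, as had 16.4% of all probesets). At P18, 3 had an unadjusted p under 0.05, as had 8.77% of all probesets, and 1 passed, where 0.383% of all probesets passed as higher. It was *Acsl4*, which links arachidonic acid to coenzyme A, with mean signals of 9.34 in Tg1MDW/1MDW and 8.87 in WT at P18 and a rise of 0.47 (SE 0.09, limma adjusted p = 0.032), and its difference at P5 was -0.02. The list's largest changes at P5 were -0.39 for the transporter *Slc27a6* (limma adjusted p = 0.17) and -0.33 for *Acsl6*, another acyl-CoA synthetase (limma adjusted p = 0.30).

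Of 13 genes of mitochondrial fatty acid oxidation none passed in limma at either age (4 at P5 and 1 at P18 had an unadjusted p under 0.05, against 16.4% and 8.77% of all probesets). All 13 had lower values in Tg1MDW/1MDW at P5, with a median of -0.14, and at P18 their median was 0.00. *Cpt1a*, which admits fatty acids to mitochondria, had a change of -0.28 at P5 (limma adjusted p = 0.092) and *Acaa2*, the thiolase of the pathway, -0.35 (limma adjusted p = 0.22). At P18 the extremes were 0.26 for *Hadhb* (limma adjusted p = 0.30) and -0.15 for *Acadl* (limma adjusted p = 0.70).

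None of 14 genes of lipid droplets and lipolysis passed in a genotype comparison in limma (4 at P5 and 1 at P18 at an unadjusted p under 0.05), with medians of -0.08 at P5 and -0.09 at P18, and 9 of them passed as higher at P18 than at P5 in WT, where 19.8% of all probesets did. The monoglyceride lipase *Mgll* changed by -0.45 at P5 (limma adjusted p = 0.065) and the fat cell droplet coat gene *Plin1* by 0.24 (limma adjusted p = 0.29), and at P18 the widest values were -0.44 for *Cidec* (limma adjusted p = 0.49) and -0.26 for *Plin4* (limma adjusted p = 0.73). At an unadjusted p under 0.05 there were 16.4% of all probesets at P5 and 8.77% at P18. Of 11 nuclear receptors of fatty acids and retinoids and their partners, to which FABPs and CRABPs deliver ligands, none passed in limma (3 at P5 and 2 at P18 at an unadjusted p under 0.05). Their medians were -0.11 at P5, where the coactivator *Ppargc1a* had -0.30 (limma adjusted p = 0.29), and -0.02 at P18, where the retinoic acid receptor *Rarb* had 0.26 (limma adjusted p = 0.38).

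The genes whose signal followed each member most closely over the 16 arrays were different for each. By Pearson's r of log2 signal among 19936 other genes, *Pmp2* was followed by *Rasal2*, a Ras GTPase-activating protein (0.952), *Qk*, an RNA-binding protein of myelinating glia (0.952), and *Prss12*, a neuronal serine protease (0.939). *Fabp7* was followed by *Zfp280c* (0.995), the aryl hydrocarbon receptor *Ahr* (0.992) and the cholinesterase *Bche* (0.991). *Fabp4* was followed by *Cxcr2*, a chemokine receptor of neutrophils, *Kel*, a red cell surface protease, and *S100a9*, a calcium-binding protein of neutrophils, each at 0.996. The brighter *Fabp3* probeset was followed by *Col7a1* (0.960), *Nlrc5* (0.955) and *Prm3* (0.954), and that of *Fabp5* by *Nenf* (0.921), *Eif3k* (0.914) and *Rps20* (0.914). Among the members, r was -0.95 for *Fabp7* and *Fabp4*, 0.72 for *Fabp7* and the brighter *Fabp3* probeset, and 0.30 for *Pmp2* and *Fabp7*. The dimmer *Fabp3* probeset, which went the other way between the ages, was not included, so the 0.72 does not stand for the gene. These values are descriptions, since the 16 arrays fall into 4 groups that all genes share.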

How the data were processed

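RNA of 16 samples had been hybridised to Affymetrix MoGene 1.0 arrays. The authors deposited log2 signals of 34760 probesets (2.09 to 13.7). Background correction, normalization and probe summary are not given in the sources used here, apart from the naming of limma. No further normalization or filter was applied. Titles call the samples biological replicates, but whether a sample was 1 mouse or a pool is not stated, so p-values measure the spread between these samples, which may be technical. The number of arrays limits the precision.

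All arrays entered 1 limma 3.58.1 fit (R 4.3.3, lmFit and eBayes) of 4 group means, on 12 residual plus 3.23 prior degrees of freedom, from which were taken the genotype effect at each age, their difference, and the age effect in each genotype. Tests were two-sided, p-values were adjusted by Benjamini-Hochberg over all 34760 probesets, and an adjusted p below 0.05 counted as passing, whatever the fold. The platform table gave 1 gene for 21640 probesets and several for 1321, and positions came from RefSeq (GRCm38.p6). The members, lists and tests were chosen with earlier results of these data known. Genes named were the members, the family list, the 3 genes most correlated with each member, up to 4 genes of a pathway list that passed or the 2 largest changes where none did, and up to 3 genes of a marker list, as well as the transgene's. Within the family, values given in full for *Crabp1* and *Crabp2* were chosen after they were seen. Some genes of the lists were not analysed here, nor were protein sequences. The alternatives tried were a block for the replicate number, fits of each age alone, array weights, another variance model, filters, other scalings and call rules, other probesets of a gene, a Y-linked covariate and each array left out in turn. Plots were drawn with matplotlib 3.10.9.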

Additional observations from a re-analysis of the deposited data

Results flagged for a closer look

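The genotype effect on *Pmp2* differed between the ages, by 4.48 at P18 minus P5, and is a description because the gene was chosen for it. For *Fabp7* the same difference was 0.83 (SE 0.11, limma adjusted p = 0.00083).

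*Fabp9* had 1 P5 WT sample far from the rest, replicate 3 at a log2 signal of 4.38, where the nearest of the other WT samples was at 3.60. The gap was 0.855 of the group's range. The signal stayed below the lower quartile of its array (4.93). Chance alone gives such a gap in some of the groups looked at.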

How the results depend on the processing

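Many alternatives could not change a direction: the block, fits of each age, variance model, filters and fold limits leave the estimated difference as it was. Leaving out an array does the same for the genotype difference at the other age, and a fold limit cannot make a member pass. The count that follows is therefore no measure of robustness. Of 424 planned values for the members' genotype comparisons, 413 kept the direction and the side of the threshold. Exceptions were *Fabp4* (-0.04) and *Fabp5* (0.01) in the difference between the ages with array weights. With the mean of a gene's probesets, *Fabp3* came to -0.06 at P5, 0.09 at P18 and 0.14 in the difference, with 0.80 in Tg1MDW/1MDW and 0.66 in WT between the ages, and *Fabp5* to 0.03 in the difference. A limit of 2-fold removed *Fabp7* at P18 (0.94) and in the difference (0.83). Beyond these 424, with the dimmer probesets, an alternative added after seeing the data, *Fabp3* had -0.40 at P5, 0.28 at P18, 0.67 in the difference, and 2.33 in Tg1MDW/1MDW and 1.66 in WT between the ages, and *Fabp5* 0.07 at P18 and 0.19 in the difference. Repeated quantile normalization gave *Fabp5* -0.01 between the ages in Tg1MDW/1MDW. Scaling moved the median of all probesets between the ages in WT, at -0.06 as deposited, 0.09 with quantile normalization and 0.13 when arrays were centred.

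Leaving out 1 array gave *Pmp2* differences of -3.04 to -2.73 at P5, 1.47 to 1.74 at P18 and 4.31 to 4.64 between these, and *Fabp7* differences of 0.92 to 0.96 at P18 and 0.79 to 0.89 between the ages. *Fabp3* at P5 ranged over 0.20 to 0.41 and passed without Tg1MDW/1MDW replicate 3 (limma adjusted p = 0.043, range 0.043 to 0.58). In the difference, *Fabp4* ranged over -0.02 to 0.15 and *Fabp5* over -0.21 to 0.02, and *Fabp5* in Tg1MDW/1MDW between the ages over -0.03 to 0.09.

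The probesets passing numbered 212 at P5, 154 at P18 and 207 in the difference. They numbered 91 at P5 and 475 at P18 with separate fits, 1715, 2179 and 3234 (P5, P18, difference) with array weights, 360 at P5 without the dimmest 50% of probesets, 362 and 386 (P5, difference) with named probesets only, 76 and 111 (P5, difference) with the Y-linked covariate, 105 at P5 with a 1.5-fold limit, and 34, 59 and 95 (P5, P18, difference) with a 2-fold limit. Leaving out 1 array gave 140 to 2907 at P5 (2907 without Tg1MDW/1MDW replicate 3, 594 without WT replicate 1, 140 without WT replicate 5), 85 to 181 at P18 (97, 100 and 85 without Tg1MDW/1MDW replicates 1, 2 and 3, and 100 without WT replicate 1 or 3) and 127 to 584 in the difference (584 without Tg1MDW/1MDW P5 replicate 3, 335 without WT P5 replicate 1, 129 and 127 without Tg1MDW/1MDW P18 replicates 2 and 3, 133 without WT P18 replicate 1). The cause was not tested.

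The replicate numbers were not taken to pair the samples: deviations of same-numbered samples from their group means correlated at 0.29, 0.36, -0.11, 0.20 and -0.22 at P5 and at 0.069, 0.00043 and 0.0099 at P18. With the replicate number as a block, 139 probesets passed at P5, 95 at P18 and 142 in the difference, and no member's call changed.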
